A study of Mus musculus with 14 samples.

Results

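Serine/arginine-rich (SR) proteins and heterogeneous nuclear ribonucleoproteins (hnRNPs) are 2 families of RNA-binding proteins that decide which exons of a pre-mRNA are joined. The probes described here are all non-control probes whose gene name on the array begins with Sfrs or Srsf and a digit, or with Hnrnp or Hnrp. This gave 59 probes of 33 genes among the 55681 non-control probes of the design, 23 probes of 13 SR-named genes and 36 probes of 20 hnRNP genes. All 59 were above background on enough arrays to be tested, and 56 of them were well above background on all 14 arrays. All 59 matched a current RefSeq symbol, and 5 genes have since been renamed: the array's Srsf12 is now Srek1, its Srsf13b is now Srsf12, its Sfrs18 is Pnisr, and Hnrpdl and Hnrpll are Hnrnpdl and Hnrnpll. The array's Srsf12 is called Srek1 and its Sfrs18 is called Pnisr below, and Srsf13b keeps its array name.

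The SR proteins carry RNA recognition motifs and a tail of arginine and serine repeats, which kinases of the Srpk and Clk families phosphorylate. They bind enhancer sequences in exons and recruit the spliceosome to the neighbouring splice sites. The hnRNPs coat nascent transcripts, and many of them repress the inclusion of exons or act later on the stability and transport of the mRNA. Many genes of both families tune their own mRNA by including an exon that leads to nonsense-mediated decay, so a probe's signal can depend on which isoform it reads. Satellite cells, the stem cells of skeletal muscle, lie quiescent beside the fibres until injury activates them.

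The cells were satellite cells sorted from mouse muscle by integrin α7 and CD34, with cells carrying CD31, CD45, CD11b or Sca1 removed. Young (2, 2 and 3 months, 3 arrays), Old (22, 23 and 24 months, 3 arrays) and Geriatric (30 and 29 months, 2 arrays, numbered 1 and 3) mice were C57BL/6, and 12-month-old SAMP8 and SAMR1 mice (3 arrays each) are a senescence-prone strain and its senescence-resistant counterpart. All mice are labelled male, all were unmanipulated as far as the labels say, and each sample is labelled a biological replicate. RNA of the few sorted cells was amplified before Cy3 labelling, and each array carried 1 sample. In such bulk samples fewer cells of a type and less RNA per cell cannot be told apart. Levels are log2 of the processed signal relative to the 75th percentile of the array, so that 0 is the level of the probe at that percentile.

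The arrays differed in ways that touch every comparison with Geriatric cells. Xist, the X-inactivation RNA of female cells, lay between −8.15 and −3.52 on the 8 Geriatric, SAMP8 and SAMR1 arrays, against 5.08 to 5.86 on the 6 Young and Old arrays. The Y-linked Ddx3y, Uty and Kdm5d ran the other way, with Ddx3y at −0.55 to 0.56 on the 8 arrays and −7.69 to −7.36 on the 6. The Young and Old arrays thus went against their male label, and Geriatric age and this difference cannot be told apart. The satellite cell markers were all 10 of 10 well above background on every array, as were 8 to 10 of the 10 leukocyte markers. The satellite cell markers summed to 7.32 to 7.34 in Geriatric, 7.04 to 7.32 in Old and 6.93 to 7.55 in Young cells. Their median Geriatric minus Old change was 0.33. In Geriatric cells the summed level of the 10 leukocyte markers was 7.47 to 7.53, against 7.95 to 8.63 in Old and 8.07 to 8.55 in Young cells. For the 10 smooth muscle and pericyte markers it was 7.52 on both Geriatric arrays, against 8.07 to 8.24 in Old cells, and for the 10 muscle fibre markers 2.05 to 2.2 in Geriatric against 2.46 to 3.44 in Old cells (log2 sums). The part of these lists in the results below was not tested. Outlier spots numbered 969 on Geriatric 1 and 94 to 255 elsewhere. By the array identifiers in the file headers, slide 2 held both Geriatric arrays, Young 2, Old 1 and 3, SAMP8 1 and 3 and SAMR1 2, and slide 1 the remaining 6.

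Seen over all members, the SR and hnRNP probes were lower in Old than in Geriatric cells. The median level of the 59 probes was 1.32, 1.51 and 1.24 on the Young arrays, 0.88, 1.13 and 1.39 on the Old arrays and 1.45 and 1.54 on the Geriatric arrays. It was 1.47, 1.02 and 1.35 on the SAMP8 arrays and 1.26, 1.43 and 1.13 on the SAMR1 arrays. Both Geriatric medians thus lay above all 3 Old ones, while Old and Young overlapped through Old 3, and SAMP8 and SAMR1 overlapped. The probes moved together within groups as well. Old 3 was the highest Old array for 41 of 59 member probes (69.5%) and for 33.1% of all tested probes. Young 2 was the highest Young array for 41 (69.5%, against 36% of all probes), SAMR1 2 the highest SAMR1 array for 37 (62.7%, against 32.3%), and SAMP8 3 the highest SAMP8 array for 33 (55.9%, against 29.3%). These 4 arrays all lay on slide 2. On that slide Old 1, in contrast, was the lowest Old array for 31 of 59 member probes (52.5%, against 29.9% of all probes).

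**Figure D1:**
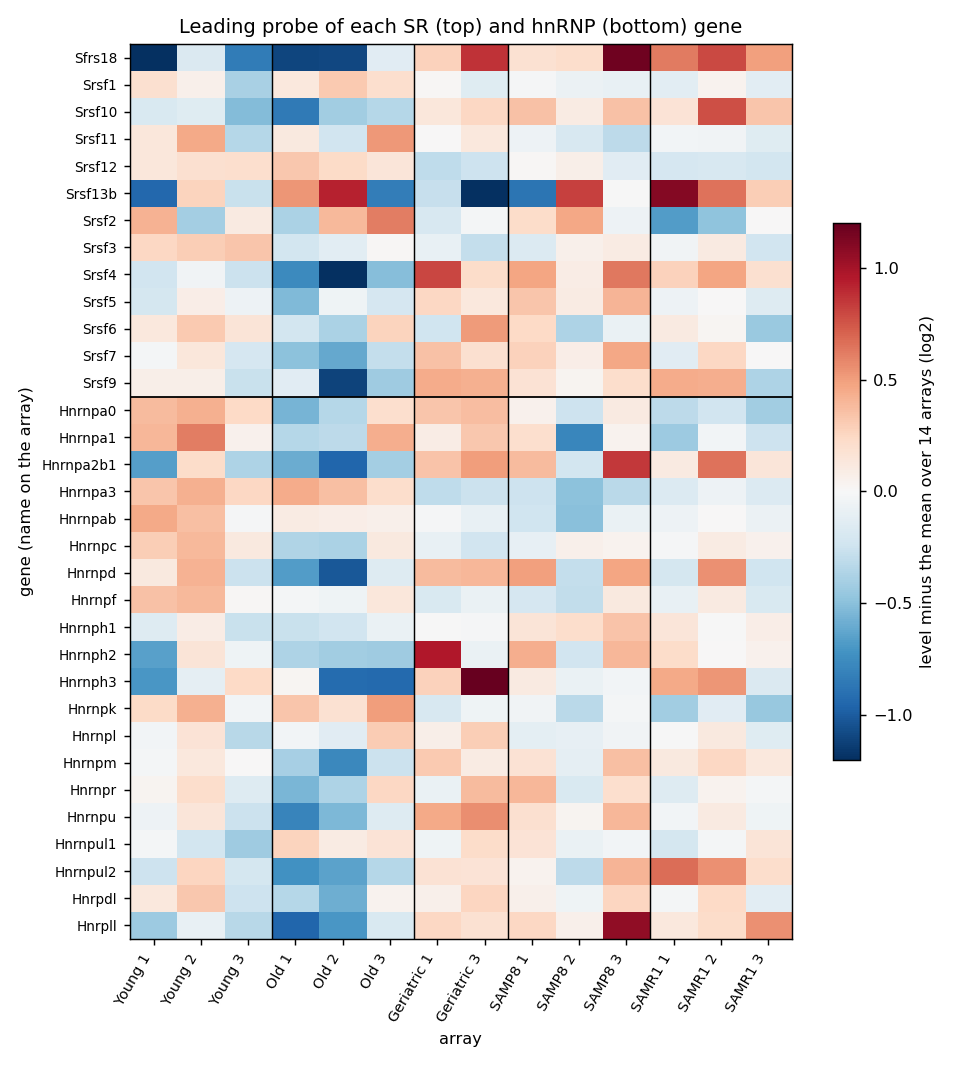
Level of the leading probe of each gene (the tested probe with the highest mean over the 14 arrays), minus its own mean over the arrays, on a log2 scale whose end colours stand for 1.2 or more either way. Columns are the 14 arrays by group and rows the 13 SR-named and 20 hnRNP genes under their array names. Old 1 and Old 2 lie below the row mean for 24 and 25 of the 33 genes, Old 3 for 16, and the Geriatric arrays are red for Srsf4, Srsf7, Hnrnpu and Hnrnph3.

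Between Geriatric and Old cells, 6 member probes rose and 1 fell, those of Srsf4, Srsf7, Pnisr, Hnrnph3, Hnrnpu and Hnrnpul1 upward and 1 of the 7 probes of Hnrnpa3 downward. The rises are 10.2% of the member probes, where 5.32% of all 49929 tested probes rose, and the fall is 1.69%, where 12.7% of all fell (limma adjusted p under 0.05). Among the 25519 tested probes with a current RefSeq symbol, 7.5% rose and 9.82% fell. The median change of the members was 0.44, that of all tested probes −0.18 and that of the probes with a current RefSeq symbol 0.03 (log2, Geriatric minus Old). Of the member changes 43 of 59 (72.9%) were positive, against 42.4% over all tested probes and 51.4% over those with a symbol. Counted by the leading probe of each gene, 22 of 33 changes were positive (median 0.38). These were 7 of 13 SR-named genes (median 0.24) and 15 of 20 hnRNP genes (median 0.42). In 27 member probes (45.8%) both Geriatric arrays lay above all 3 Old arrays, where 20.5% of all probes did so, and in 7 (11.9%) they lay below, where 32.4% did. Another scaling moved the all-probe median to 0.02 with the authors' deposited log2 values and to 0.09 with quantile normalization. The members' median was then 0.43 and 0.47. With normexp background correction the all-probe median was −0.24 and the members' median 0.37. With the authors' values and quantile normalization 19 and 12 member probes rose and 0 fell, and with normexp 14 rose and 0 fell. Of all probes 8.47% then rose and 9.72% fell with the authors' values, 9.49% and 8.91% with quantile normalization, and 6.08% and 20.9% with normexp. The count of rises dropped to 2 without Old 2 and grew to 11 without Old 3. Of all 49929 tested probes 1218 and 3109 then rose, against 2656 with all arrays. Leaving out Geriatric 1 or Geriatric 3 leaves 1 Geriatric array, and the median change of the members was then 0.4 and 0.36. The fall was not called without Old 1, Old 2, Geriatric 1, Geriatric 3, SAMR1 1 or SAMR1 3. None of the 7 calls was made when the Geriatric and Old arrays were fitted alone or within slide 2, where the median change of the members was 0.44 and 0.3.

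Between Old and Young cells no member probe passed the test, where 1.03% of all probes rose and 0.204% fell. With slide as a block, 2 member probes fell, where 0.489% of all probes did. These were A_52_P466887 of Hnrnpd (−0.93, limma adjusted p = 0.0412) and A_65_P08022 of Hnrnpk (−0.83, limma adjusted p = 0.0479). The probes of Hnrnpk disagreed: in the fit without the block its leading probe changed by 0.13 ± 0.19 and A_55_P2107854 by −0.43 ± 0.18 (log2, SE). Without the block the changes leaned to the low side, with 49 of 59 negative and a median of −0.29 against 0.07 over all tested probes. Over the probes with a current RefSeq symbol the median was −0.02. Positive changes made up 16.9% of the members, 55.4% of all tested probes and 48.5% of those with a symbol. Counted by the leading probe of each of the 33 genes, 24 changes were negative and 8 positive (median −0.25). At an unadjusted p under 0.05 in limma 13 member probes were lower and 0 higher. The share of all probes at that threshold is not given here. In 14 member probes (23.7%) all 3 Old arrays lay below all 3 Young arrays, where 8.53% of all probes did so, and in 1 probe (1.69%) above, where 12.8% did. The members' median stayed between −0.25 and −0.38 in the settings that kept all arrays, and between −0.46 and −0.20 when 1 array was left out. Over all tested probes the median was −0.03 with the authors' deposited log2 values, −0.06 with quantile normalization and 0.08 with normexp.

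Between Geriatric and Young cells no member probe passed either, where 1.35% of all probes rose and 2.19% fell. The median of the members was 0.12, against −0.13 over all probes and −0.03 over those with a current RefSeq symbol. The members' median turned to −0.05 with slide as a block and to −0.07 within slide 2. Both Geriatric arrays lay above all Young arrays in 16 member probes (27.1%, against 16.4% of all probes) and below them in 12 (20.3%, against 26%). The contrasts of Geriatric with Old, Geriatric with Young and Old with Young share arrays, so their values are not independent of one another.

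Between SAMP8 and SAMR1 cells no member probe passed, where 0.208% of all probes rose and 0.212% fell, and 0 passed an unadjusted p under 0.05 in limma. The median was 0.02 over the members and 0.01 over all probes, and the lowest adjusted p was 0.611. The Geriatric minus Young change differed from the SAMP8 minus SAMR1 change in 0 member probes by limma's test of that difference, where 0.513% of all probes had a higher and 1.06% a lower Geriatric change. At an unadjusted p under 0.05 this test gave 3 member probes with a higher and 1 with a lower Geriatric change, and the share of all probes there is not given here.

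**Figure D2:**
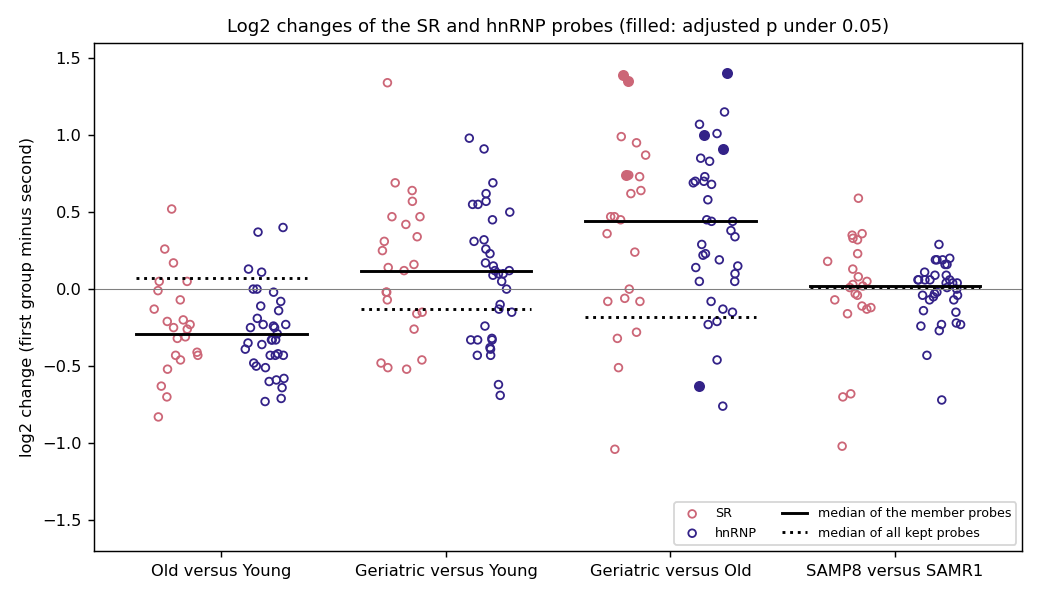
Log2 change (first group minus second) of each of the 23 SR-named and 36 hnRNP probes in 4 comparisons, with filled points for an adjusted p under 0.05. Solid lines are the members' medians (−0.29, 0.12, 0.44 and 0.02 from left to right) and dotted lines the medians of all tested probes (0.07, −0.13, −0.18 and 0.01).

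Among the SR proteins, Srsf4, which binds purine-rich exonic enhancers, had the smallest adjusted p of the members between Geriatric and Old cells. Its single probe (A_55_P2129706, mm9 chr4:131457553-131457612) read 0.18, 0.37 and 0.16 on the Young arrays, −0.35, −0.94 and −0.10 on the Old arrays and 1.22 and 0.63 on the Geriatric arrays. It read 0.89, 0.50 and 1.05 in SAMP8 and 0.69, 0.89 and 0.61 in SAMR1 cells. The 3 age groups did not overlap, with Old lowest and Geriatric highest, and all 6 SAMP8 and SAMR1 arrays lay above every Young and Old array. Srsf4 rose by 1.39 ± 0.29 (log2, SE, limma adjusted p = 0.00865, n = 2 Geriatric and 3 Old arrays). The call was lost only without Geriatric 1 among the left-out arrays (1.09, limma adjusted p = 0.0759). Against Young cells, the change was 0.69 ± 0.29 in Geriatric cells (limma adjusted p = 0.211) and −0.70 ± 0.26 in Old cells (limma adjusted p = 0.203).

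Srsf7 has a zinc knuckle beside its RNA recognition motif and also serves mRNA export. Its leading probe (A_55_P1983819, mm9 chr17:80600741-80600800) read 1.72, 1.88 and 1.54 on the Young arrays, 1.25, 1.13 and 1.46 on the Old arrays and 2.10 and 1.94 on the Geriatric arrays. SAMP8 arrays read 2.02, 1.82 and 2.21 and SAMR1 arrays 1.61, 1.99 and 1.75, all above the Old arrays. Srsf7 rose by 0.74 ± 0.22 in Geriatric against Old cells (log2, SE, limma adjusted p = 0.0361). The call was lost without Old 1, Old 2, either Geriatric array or SAMR1 3, at adjusted p from 0.0521 to 0.16. Its other probe, A_51_P466673, changed by 0.47 ± 0.54 (limma adjusted p = 0.562) and did not track the first over the 14 arrays (r = −0.02).

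Srsf4, Srsf7 and the hnRNP gene Hnrnpu, described below, are among the genes with a probe that rose, and Hnrnpa3 held the probe that fell. The promoter windows of these genes are shown, from RefSeq on build GRCm38.p6, 250 bases before to 50 bases after the start of the gene (for Srsf4 the first of 3 listed windows). Of the other genes with a rise, Hnrnph3 and Hnrnpul1 are not shown and Pnisr had no window. Capitals mark every match on either strand to GGGCGG (GC box), CCAAT (the box of that name), TATAAA (the box named after its first letters), TGCGCA (NRF1 core), CCGGAA (ETS core), CACGTG (E-box) or AAGATGGC (YY1 core), and matches that overlap are marked through.
Srsf4 promoter, chr4:131873387-131873686 (plus strand): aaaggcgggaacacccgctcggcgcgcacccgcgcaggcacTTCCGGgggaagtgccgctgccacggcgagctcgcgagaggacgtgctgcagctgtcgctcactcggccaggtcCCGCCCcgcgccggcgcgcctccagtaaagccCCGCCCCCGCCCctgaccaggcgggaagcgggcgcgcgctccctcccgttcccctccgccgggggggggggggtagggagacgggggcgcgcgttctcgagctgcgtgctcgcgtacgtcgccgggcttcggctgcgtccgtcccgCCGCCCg
Srsf7 promoter, chr17:80207256-80207555 (minus strand): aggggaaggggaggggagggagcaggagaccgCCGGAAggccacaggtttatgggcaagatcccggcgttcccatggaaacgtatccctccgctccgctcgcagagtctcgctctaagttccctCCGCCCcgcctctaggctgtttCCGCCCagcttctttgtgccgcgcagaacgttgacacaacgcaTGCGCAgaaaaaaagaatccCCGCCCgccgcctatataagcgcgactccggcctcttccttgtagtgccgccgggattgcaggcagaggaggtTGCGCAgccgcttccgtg
Hnrnpu promoter, chr1:178337766-178338065 (minus strand): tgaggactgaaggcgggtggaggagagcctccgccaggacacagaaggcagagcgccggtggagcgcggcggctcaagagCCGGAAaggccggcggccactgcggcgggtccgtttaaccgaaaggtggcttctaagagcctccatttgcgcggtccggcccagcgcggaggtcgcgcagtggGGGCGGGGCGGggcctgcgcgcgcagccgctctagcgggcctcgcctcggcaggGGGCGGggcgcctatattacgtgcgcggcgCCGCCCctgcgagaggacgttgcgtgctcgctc
Hnrnpa3 promoter, chr2:75659009-75659308 (plus strand): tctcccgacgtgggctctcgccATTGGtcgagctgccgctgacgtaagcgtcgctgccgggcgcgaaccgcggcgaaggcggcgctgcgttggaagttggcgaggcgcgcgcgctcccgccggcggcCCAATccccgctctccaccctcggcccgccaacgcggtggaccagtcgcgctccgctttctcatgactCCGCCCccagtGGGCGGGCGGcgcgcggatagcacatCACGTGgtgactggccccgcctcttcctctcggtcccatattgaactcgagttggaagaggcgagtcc
All 4 windows held GC boxes, 4 in Srsf4, 3 in Srsf7, 4 in Hnrnpu and 3 in Hnrnpa3, and no match to TATAAA. Other forms of the TATA box were not searched for. An ETS core stood once each in Srsf4, Srsf7 and Hnrnpu, the NRF1 core 2 times in Srsf7, and 2 CCAAT boxes and 1 E-box in Hnrnpa3. Of the 33 genes, 30 had a window in the table, 42 windows in all, whose median GC content was 67.8% against 52.7% over 32851 windows. The GC box was in 83.3% of the members' windows and 35.7% of all windows, the ETS core in 42.9% and 14.9%, the CCAAT box in 50% and 37.4%, and the NRF1 core in 21.4% and 7.76%. The E-box was in 11.9% and 7.15%, the TATA box in 9.52% and 13.6%, and the YY1 core in 2.38% and 2.75%. Such letter matches are a description, and their part in the levels was not tested.

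None of the other SR proteins passed in any comparison. Srsf1, which activates nearby splice sites, read 3.69, 3.56 and 3.11 on the Young arrays, 3.62, 3.81 and 3.70 on the Old arrays and 3.51 and 3.35 on the Geriatric arrays with its leading probe (−0.28 ± 0.21 for Geriatric against Old, log2, SE). Its A_55_P1964477 spot on Geriatric 1 was an outlier and was left out, so that probe's Geriatric value rests on 1 array. Srsf2, a protein of nuclear speckles, had 2 probes that disagreed, at −0.32 ± 0.35 for the leading one and 0.74 ± 0.24 (limma adjusted p = 0.0564) for A_52_P8043. Srsf3, the smallest SR protein, read 6.41, 6.46 and 6.49 on the Young arrays, 5.94, 6.03 and 6.17 on the Old arrays and 6.07 and 5.87 on the Geriatric arrays with its leading probe. With that probe both older groups lay below all Young arrays, at −0.41 ± 0.17 for Old (limma adjusted p = 0.265) and −0.48 ± 0.19 for Geriatric (limma adjusted p = 0.187). Its other 2 probes differed in this, with Geriatric minus Young changes of −0.26 ± 0.20 for A_55_P1980125 and 0.16 ± 0.28 for A_51_P417016, and Old minus Young changes of −0.26 ± 0.18 and −0.46 ± 0.25.

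Srsf5 had 1 probe, which read 3.78, 4.07 and 3.93 on the Young arrays, 3.46, 3.94 and 3.79 on the Old arrays and 4.24 and 4.12 on the Geriatric arrays, with both Geriatric arrays above the other 6. The Geriatric minus Old change was 0.45 ± 0.21 (limma adjusted p = 0.15). For Srsf6 the leading probe changed by 0.24 ± 0.30 and the other by 0.36 ± 0.28 in the same comparison. Srsf9 read −2.18 and −2.20 on the Geriatric arrays, against −2.76, −3.73 and −3.05 on the Old arrays. That difference of 0.99 ± 0.32 missed the threshold (limma adjusted p = 0.0516). Srsf10, which represses splicing when dephosphorylated, had 2 probes at 0.73 ± 0.25 and 0.95 ± 0.34 (limma adjusted p = 0.0647 and 0.0717), whose Geriatric arrays lay above all Old arrays. Its remaining probe, A_55_P1978810, was well above background on 12 of 14 arrays and changed by −0.08 ± 0.63.

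The remaining SR-named genes gave changes of both signs. Pnisr, a speckle protein with an SR-like domain, had 1 probe (A_55_P2022499, mm9 chr4:21803257-21803316) that read −3.04, −1.94 and −2.61 on the Young arrays, −2.87, −2.86 and −1.91 on the Old arrays and −1.49 and −0.90 on the Geriatric arrays. All 6 SAMP8 and SAMR1 arrays, at −1.59 to −0.60, also lay above every Young and Old array, the highest of which was −1.91. Pnisr rose by 1.35 ± 0.42 in Geriatric against Old cells (limma adjusted p = 0.0469), and its Geriatric minus Young change was 1.34 ± 0.42 (limma adjusted p = 0.111). The call was close to the threshold: it was lost in 13 of 25 alternative settings, 9 of them with 1 array left out (Young 3, Old 1, Old 2, either Geriatric array, any SAMR1 array or SAMP8 1; adjusted p 0.0534 to 0.276).

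Srek1, a regulator that binds other SR proteins, read 7.81, 7.87 and 7.88 on the Young arrays, 8, 7.91 and 7.82 on the Old arrays and 7.37 and 7.43 on the Geriatric arrays. Both Geriatric arrays lay below the other 6, and the changes were −0.51 ± 0.17 against Old (limma adjusted p = 0.0609) and −0.46 ± 0.17 against Young cells (limma adjusted p = 0.169). Srek1 also had the smallest p of the members for the difference between the Geriatric minus Young and SAMP8 minus SAMR1 changes (−0.64 ± 0.23, limma adjusted p = 0.22). The leading probes next to it were those of Pnisr (1.45 ± 0.57, limma adjusted p = 0.253) and Hnrnph3 (1.25 ± 0.54, limma adjusted p = 0.3). Srsf11 had 2 probes, at −0.06 ± 0.27 for the leading one and 0.47 ± 0.31 for a probe that rests on a cDNA record. The array's Srsf13b read between −5.70 and −3.21, was well above background on 13 of 14 arrays and changed by −1.04 ± 0.62 (limma adjusted p = 0.255).

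**Figure D3:**
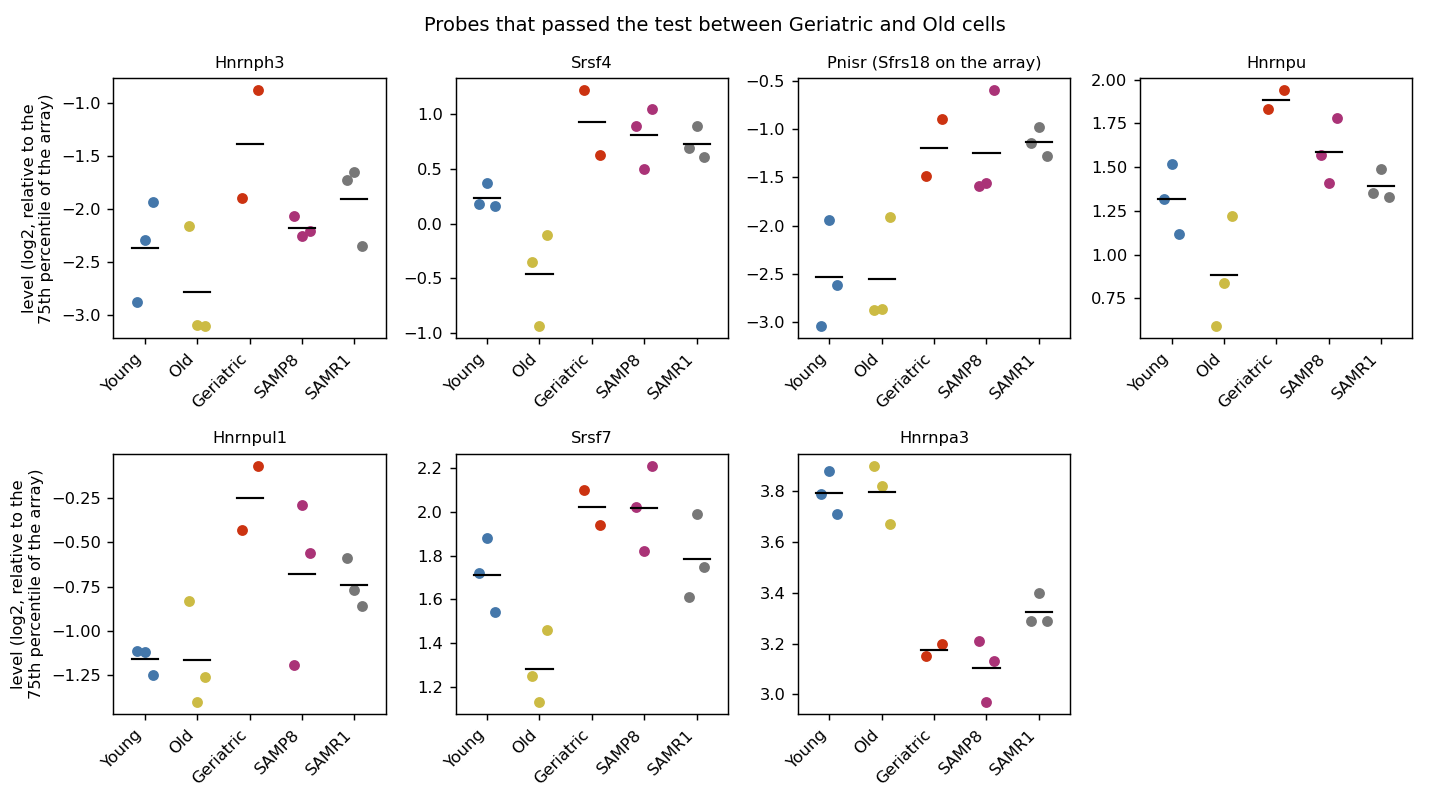
Level (log2 relative to the 75th percentile of the array) of the 7 member probes that passed the test between Geriatric and Old cells, 1 point per array with the group mean as a bar. The y axes differ between panels. For Srsf4, Pnisr and Hnrnpa3 the 6 SAMP8 and SAMR1 arrays lie on the Geriatric side of every Young and Old array.

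Among the hnRNPs, the A/B family, whose members repress exons and bind each other, held the only fall. Hnrnpa3 had 7 probes, and the one that fell, A_55_P2058628, read 3.79, 3.88 and 3.71 on the Young arrays, 3.90, 3.82 and 3.67 on the Old arrays and 3.15 and 3.20 on the Geriatric arrays. SAMP8 arrays read 3.21, 2.97 and 3.13 and SAMR1 arrays 3.29, 3.40 and 3.29, so that these 6 and the Geriatric arrays all lay below every Young and Old array. The Geriatric minus Old change was −0.63 ± 0.18 (log2, SE, limma adjusted p = 0.034) and the Geriatric minus Young change −0.62 ± 0.18 (limma adjusted p = 0.0851). The fall was not called with the authors' deposited log2 values (−0.42, limma adjusted p = 0.172), with quantile normalization (−0.48, 0.105) or with normexp (−0.54, 0.0605).

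The other 6 probes of Hnrnpa3 changed by −0.23 to 0.44 and none passed. This probe and A_55_P2020443 are the 2 member probes whose mm9 coordinates in the files span more than their 60 bases, 705 and 144 bases, as probes across an exon junction or a split alignment do. Both are shown because the array annotation names them by another transcript record than the other 5, although A_55_P2087225 lists that record as well.
A_55_P2020443, chr2:75500576-75500719 (plus strand): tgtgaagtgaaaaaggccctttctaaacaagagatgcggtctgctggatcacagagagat
A_55_P2058628, chr2:75500962-75501666 (plus strand): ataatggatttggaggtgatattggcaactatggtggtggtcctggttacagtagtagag
A_55_P2020443 read 1.6, 1.47 and 1.45 on the Young arrays, 1.41, 1.49 and 1.55 on the Old arrays and 1.15 and 1.39 on the Geriatric arrays. It read 0.26, 1.17 and 0.80 in SAMP8 and 0.63, 0.89 and 0.53 in SAMR1 cells, so that here too the 8 arrays lay below all 6 Young and Old arrays, although the Geriatric minus Old change was only −0.21 ± 0.26. The other 5 probes did not divide the arrays in this way. Correlations between pairs of the 7 probes ran from −0.49 to 0.82 over the 14 arrays. Of the 7, 5 also list a non-coding or predicted record in the files, as do the 2 probes of Hnrnpa1, the 3 of Srsf3 and the 1 of Srsf9. Whether those records are near copies at other loci or other transcripts of the same gene was not examined, and signal from them cannot be told apart.

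**Figure D4:**
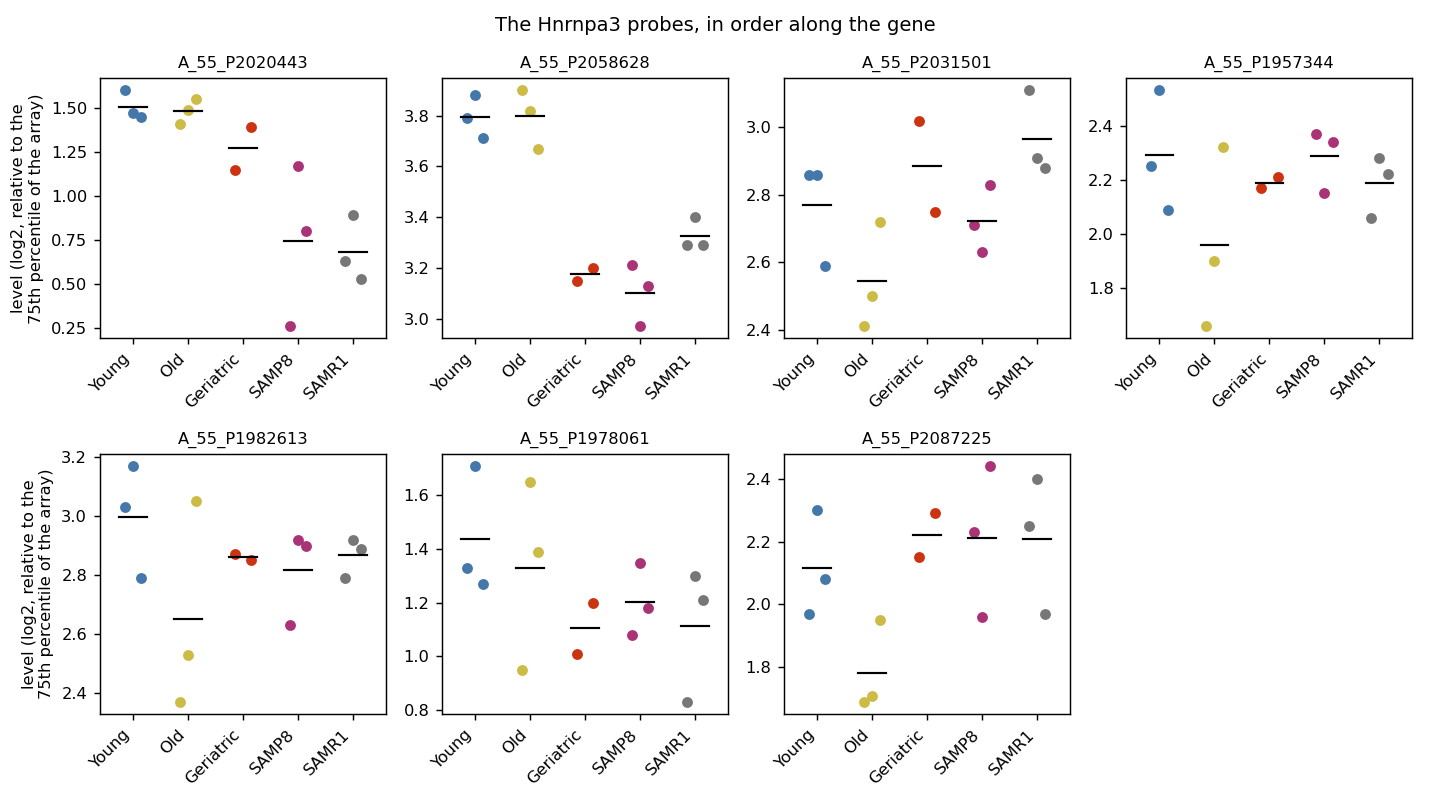
Level (log2 relative to the 75th percentile of the array) of the 7 Hnrnpa3 probes in order along the gene, 1 point per array with the group mean as a bar, on separate y axes. The first 2 panels, the probes with split coordinates, are lower on all Geriatric, SAMP8 and SAMR1 arrays than on any Young or Old array, and the other 5 overlap.

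The rest of the family gave no call. Hnrnpa0, which binds AU-rich elements, read 2.86, 2.91 and 2.72 on the Young arrays, 1.92, 2.14 and 2.68 on the Old arrays and 2.81 and 2.85 on the Geriatric arrays with its leading probe. All Old arrays lay below all Young and Geriatric ones, and this was the leading probe with the smallest p between Old and Young cells (−0.58 ± 0.21, limma adjusted p = 0.203). Its other probe changed by 0.37 ± 0.39 in that comparison. For Hnrnpa1, the best known repressor of the family, the Old minus Young change was −0.43 ± 0.30 with the leading probe and −0.73 ± 0.26 with A_55_P2066041, which had the lowest adjusted p of all members there (limma, 0.184). Hnrnpa2b1 read 1.56 and 1.72 on the Geriatric arrays, against 0.62, 0.27 and 0.81 on the Old arrays, with no overlap (1.07 ± 0.35, limma adjusted p = 0.0553). Hnrnpab changed by −0.13 ± 0.20 and 0.44 ± 0.25 between Geriatric and Old cells with its 2 probes.

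Hnrnpc, which binds uridine tracts, read 4.56, 4.65 and 4.38 on the Young arrays, 3.90, 3.88 and 4.38 on the Old arrays and 4.17 and 4.03 on the Geriatric arrays. Its 2 probes were the best matched pair of the set (r = 0.89) and gave −0.48 ± 0.18 and −0.59 ± 0.22 for Old against Young cells (limma adjusted p = 0.226 and 0.214). Hnrnpd, whose protein binds AU-rich elements and promotes mRNA decay, read 1.48 and 1.5 on the Geriatric arrays, against 0.43, 0.08 and 0.94 on the Old arrays (1.01 ± 0.36, limma adjusted p = 0.0728). Its relative Hnrnpdl changed by 0.45 ± 0.25 and 1.15 ± 0.45 with its 2 probes in the same comparison, and neither passed.

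The F/H family binds runs of guanines. Hnrnph3 (A_55_P2059254, mm9 chr10:62477445-62477504) read −2.88, −2.29 and −1.94 on the Young arrays, −2.16, −3.10 and −3.11 on the Old arrays and −1.90 and −0.88 on the Geriatric arrays. SAMP8 arrays read −2.07, −2.26 and −2.21 and SAMR1 arrays −1.73, −1.65 and −2.35, within the range of the Young and Old arrays for 4 of the 6. Hnrnph3 rose by 1.40 ± 0.40 in Geriatric against Old cells (log2, SE, limma adjusted p = 0.0356), the largest member change there, and Geriatric 3 carried much of it. Without that array the change was 0.89 (limma adjusted p = 0.292), and the call was also lost without Old 2 (1.25, 0.103) or Old 3 (1.24, 0.0752). Its Geriatric minus Young change was 0.98 ± 0.40 (limma adjusted p = 0.206).

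Hnrnph2, which lies on chromosome X, read 0.44 and −0.60 on the Geriatric arrays, against −0.89, −0.94 and −0.95 on the Old arrays (0.85 ± 0.34, limma adjusted p = 0.102). For Hnrnph1 the change was 0.19 ± 0.19. The leading probe of Hnrnpf changed by −0.15 ± 0.21 and its other probe by 0.70 ± 0.24 (limma adjusted p = 0.0669), and the 2 did not track each other over the arrays (r = −0.03).

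Hnrnpk, which binds cytosine-rich RNA through KH domains, had 3 probes at −0.46 ± 0.22, 0.10 ± 0.21 and 0.69 ± 0.32 for Geriatric against Old cells, the last of them on a cDNA record. Hnrnpl, which binds CA repeats, changed by 0.14 ± 0.22, and its relative Hnrnpll by 0.83 ± 0.32 (limma adjusted p = 0.0931). Hnrnpm read 3.50, 3.65 and 3.53 on the Young arrays, 3.13, 2.75 and 3.27 on the Old arrays and 3.84 and 3.63 on the Geriatric arrays. Old lay below both other groups without overlap, at −0.51 ± 0.20 against Young (limma adjusted p = 0.221), and Geriatric minus Old missed the threshold at 0.68 ± 0.22 (limma adjusted p = 0.0505). The change of Hnrnpr was 0.38 ± 0.28.

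The U family held 2 of the rises. Hnrnpu, a nuclear scaffold protein that binds DNA and RNA, had 1 probe (A_52_P73369, mm9 chr1:180258996-180259055) that read 1.32, 1.52 and 1.12 on the Young arrays, 0.59, 0.84 and 1.22 on the Old arrays and 1.83 and 1.94 on the Geriatric arrays. Both Geriatric arrays were the highest of all 14, and SAMP8 (1.57, 1.41 and 1.78) and SAMR1 (1.35, 1.49 and 1.33) arrays all lay above the Old ones. Hnrnpu rose by 1 ± 0.23 in Geriatric against Old cells (limma adjusted p = 0.0142). The call was lost without Geriatric 1 (1.06, 0.0565) or Geriatric 3 (0.95, 0.105), and the Geriatric minus Young change was 0.57 ± 0.23 (limma adjusted p = 0.199).

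Hnrnpul1 had a probe (A_52_P573366, mm9 chr7:26521707-26521766) that read −1.11, −1.12 and −1.25 on the Young arrays, −0.83, −1.40 and −1.26 on the Old arrays and −0.43 and −0.07 on the Geriatric arrays. It rose by 0.91 ± 0.28 in Geriatric against Old cells (limma adjusted p = 0.0445), and its Geriatric minus Young change was 0.91 ± 0.28 (limma adjusted p = 0.106). SAMP8 arrays, at −1.19, −0.29 and −0.56, and SAMR1 arrays, at −0.59, −0.77 and −0.86, lay on both sides of the highest Old array. The leading probe of the gene, A_55_P2025855, changed by −0.08 ± 0.21, so the 2 probes disagree. The array annotation names them by different transcript records, and whether they read different isoforms was not tested. The call of A_52_P573366 was lost in 13 of 24 alternative settings. They include leaving out Old 2, Old 3, either Geriatric array, any Young array or any SAMR1 array, with adjusted p from 0.055 to 0.263. Hnrnpul2 read 1.05 and 1.04 on the Geriatric arrays, against 0.15, 0.24 and 0.54 on the Old arrays, with no overlap (0.73 ± 0.27, limma adjusted p = 0.079).

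In SAMP8 against SAMR1 cells, the 3 leading probes with the smallest p were those of Srsf2, Srsf5 and Hnrnpul2. Srsf2 read 2.91, 3.15 and 2.63 in SAMP8 and 2.02, 2.21 and 2.69 in SAMR1 cells, where the groups overlapped (0.59 ± 0.31, limma adjusted p = 0.668). Srsf5 read 4.33, 4.09 and 4.40 in SAMP8 and 3.93, 4 and 3.84 in SAMR1 cells, with no overlap (0.35 ± 0.19, limma adjusted p = 0.67). Hnrnpul2 read 0.92, 0.56 and 1.29 in SAMP8 and 1.55, 1.43 and 1.09 in SAMR1 cells (−0.43 ± 0.24, limma adjusted p = 0.689). In 4 member probes SAMP8 lay wholly above SAMR1 and in 4 wholly below (6.78% each, against 7.61% and 5.52% of all probes). None of these tests passed, and 4 other member probes had changes of larger size than that of Srsf2. They belong to Srsf7 (A_51_P466673, −1.02 ± 0.48), Hnrpdl (A_52_P283910, −0.72 ± 0.40), Srsf13b (−0.70 ± 0.55) and Srsf1 (A_66_P103490, −0.68 ± 0.54). SAMP8 2 was the lowest SAMP8 array for those of Srsf7, Hnrpdl and Srsf1, at −4.85, −1.32 and −2.03.

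Several probes of 1 gene often gave different answers. Of the 17 member genes with 2 to 7 probes, 43 probes in all, 6 had changes of 1 sign over their probes between Geriatric and Old cells, 10 between Old and Young, 8 between Geriatric and Young and 9 between SAMP8 and SAMR1 cells. The median over these genes of the correlation between their probes was 0.35 over the 14 arrays. All of the called genes with more than 1 probe, Srsf7, Hnrnpul1 and Hnrnpa3, were called by 1 probe only.

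Other parts of the splicing machinery were read from 4 lists, each gene by its leading probe. Between Geriatric and Old cells, 4 of 24 SR-related proteins and SR kinases rose and 0 fell (median 0.29), 5 of 52 core spliceosome genes rose and 0 fell (0.29), 4 of 58 other splicing regulators rose and 2 fell (0.23), and 2 of 9 genes of nonsense-mediated decay rose and 0 fell (0.32), beside −0.18 over all probes, of which 5.32% rose and 12.7% fell. With the authors' deposited log2 values the counts were 4 and 0, 7 and 1, 10 and 2, and 2 and 0, where 8.47% of all probes rose and 9.72% fell. The list medians stayed above 0 under each of the 3 other scalings. Over all tested probes with a current RefSeq symbol the median in the main fit was 0.03. The kinase Clk4, which phosphorylates SR proteins, rose by 1 ± 0.31 (limma adjusted p = 0.0449), the speckle protein Son by 0.96 ± 0.24 (limma adjusted p = 0.0199), and the SR-related protein Pnn by 1.05 ± 0.32 (limma adjusted p = 0.0419). Of the spliceosome, Bcas2 of the Prp19 complex rose by 1.68 ± 0.31 (limma adjusted p = 0.00496), the RNA helicase Dhx16 by 1.01 ± 0.27 (limma adjusted p = 0.0272), and Puf60, which helps to recognise the 3′ splice site, by 1.04 ± 0.28 (limma adjusted p = 0.0259).

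Tia1 and Elavl1, which bind uridine-rich and AU-rich RNA, rose by 1.88 ± 0.39 and 1.01 ± 0.21 (limma adjusted p = 0.00919 and 0.0083). Celf6, a CELF family RNA-binding protein, fell by 1.89 on the log2 scale (SE 0.44, limma adjusted p = 0.0149). Ptbp1, the polypyrimidine tract repressor, was the other regulator that fell and was named after its values were seen. It read 5.07 and 4.85 on the Geriatric arrays, against 5.59, 5.63 and 5.65 on the Old arrays, and fell by 0.66 on the log2 scale (SE 0.18, limma adjusted p = 0.0308). On SAMP8 and SAMR1 arrays it read 4.6 to 5.01, below every Young and Old array. In nonsense-mediated decay, Upf3b rose by 1.73 ± 0.38 (limma adjusted p = 0.0107) and the kinase Smg1 by 0.82 ± 0.20 (limma adjusted p = 0.0187). Between Geriatric and Young cells, Rbfox1, a muscle and brain splicing regulator, rose by 1.90 ± 0.46 (limma adjusted p = 0.046) and the spliceosomal GTPase Eftud2 fell by 1.05 on the log2 scale (SE 0.26, limma adjusted p = 0.0494). In Old against Young and SAMP8 against SAMR1 cells none of the 4 lists had a call, the lowest limma adjusted p being 0.0848 and 0.0712.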

How the data were processed

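RNA of 14 sorted satellite cell samples was measured on single-colour Agilent arrays. Per the file headers, the deposited files give each spot's background-subtracted processed signal as a linear intensity from Agilent Feature Extraction 10.7.3.1, with mm9 probe coordinates. The authors' value table holds log2 values, which equalled normexp correction (offset 50) and quantile normalization to within 0.000117 (every column median 7.8), a step for which no label or header gives a method.

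Control and outlier spots were left out, replicate spots averaged on the log2 scale, and each array's 75th percentile subtracted. A probe was kept if 2 arrays of some group or more had it well above background (49929 probes). Differences were tested per probe with limma 3.58.1 (lmFit, eBayes, two-sided, R 4.3.3), with 1 coefficient per group over all 14 arrays and Benjamini-Hochberg adjustment over all kept probes at 0.05. Errors are limma standard errors, and the number of arrays limits the precision. The fit was tested on simulated data. RefSeq tables gave symbols and promoters.

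Every member probe that passed is named, plus the 3 genes whose leading probe had the smallest p where none passed, and at most 3 called genes of each other splicing list by smallest p. Members, lists, tests and the naming rule were chosen with earlier results of these data known. Of the markers, the lists of endothelial, mesenchymal, Schwann and red cells and immediate early genes were also summed. A Geriatric sample 2 was not analysed here.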

Additional observations from a re-analysis of the deposited data

How the results depend on the processing

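The 13 counts and medians of the members were recomputed with other values, filters, blocks and sets of arrays. The use of probes with a current RefSeq symbol alone was added after seeing the data, and left the counts between Geriatric and Old cells within 1.5 times. For Geriatric against Old, the count of member probes that rose was 6, against 19 with the authors' deposited log2 values, 14 with normexp, 12 with quantile normalization, 3 with the replicate block, 0 with only the arrays of both groups and 0 within slide 2, and 1 to 11 when 1 array was left out. The count that fell was 1, against 0 with the authors' values, normexp, quantile normalization, the replicate block, only the arrays of both groups and within slide 2, 3 with slide as a block, 2 with 1 probe per gene, and 0 to 1 when 1 array was left out. Of all probes 3.17% rose and 9.62% fell with the replicate block, and 5.33% and 13.1% with slide as a block. With only the arrays of both groups 533 of all probes rose and 3427 fell, and within slide 2 151 and 1931. With only those arrays, 14 member probes were higher and 1 lower at an unadjusted p under 0.05 in limma, and 8 and 0 within slide 2, where fewer arrays were fitted. The share of all probes at that threshold is not given here. Old against Young gave 2 lower member probes with slide as a block, where 0.489% of all probes fell. Geriatric against Young gave 1 higher with normexp, that of Hnrnpul1, where 1.55% of all probes rose. The causes of these changes were not tested. Same-numbered samples share only a number (r of their deviations −0.23 to 0.14), so the block is given here alone. The medians moved by less than their spread between arrays (SD 0.191), with ranges of 0.30 to 0.56 for Geriatric against Old and 0.03 to 0.19 for Geriatric against Young when 1 array was left out. None of the 7 called probes turned direction, and Srsf4 kept its call in 22 of 25 settings, Hnrnpu in 21, Hnrnph3 in 18, Srsf7 in 17, Hnrnpa3 in 13, Pnisr in 12, and Hnrnpul1 in 11 of 24. Lacking slide 1 arrays, Geriatric cells could be compared within slide 2 only. 1 dim probe each of Srsf10 and Srsf13b was below the background limit on some arrays, which limits what its changes can show.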

Other observations

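In the other marker lists, summed levels also differed between groups (log2 sums of the leading probes). Endothelial markers summed to 4.17 to 6.12 on SAMP8 and 5.38 to 6.46 on SAMR1 arrays, and to 4.15 to 4.23 in Geriatric and 3.44 to 4.04 in Old cells. Red cell markers summed to 0.58 to 6.14 on SAMP8 and 4.46 to 5.58 on SAMR1 arrays. Mesenchymal markers summed to 6.59 to 6.82 on SAMP8, 6.03 to 6.37 on SAMR1, 5.5 to 6.13 on Geriatric and 5.69 to 6.29 on Old arrays. Schwann cell markers summed to 5.36 to 5.66 in Geriatric and 5.37 to 5.74 in Old cells. The 23 measured immediate early genes summed to 10 to 10.18 on Young, 9.67 to 9.73 on Old and 9.67 to 9.97 on Geriatric arrays.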
